A study of Drosophila mojavensis with 14 samples.

Results

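The comparison set the lower reproductive tract of Drosophila mojavensis females 15 min after copulation with a male of their own species (conspecific mating) against the same tissue of virgin females. The samples were chosen by their labels, as 2 conspecific 15 min arrays and 2 virgin arrays, which are 4 of the 14 arrays of the study, and all 14519 transcripts on the array were compared. The labels name 1 isofemale line of D. mojavensis, from the Anza Borrego Desert, and 1 of D. arizonae, so the results hold for these lines. All flies were collected as virgins and aged 10 to 12 days. Each female to be mated met 2 males, which were taken away after copulation. The 2 samples of a group are biological replicates per the labels, and each pooled 20 to 25 tracts. The other 10 arrays were of conspecific mating at 2 h and 6 h and of heterospecific mating, with D. arizonae males, at 15 min, 2 h and 6 h. They share the estimate of the spread and are used below to place the transcripts that changed.

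In Drosophila the lower tract receives the ejaculate, stores sperm and passes the eggs. Seminal fluid proteins of the male accessory gland act on the female within minutes to hours, and females of the D. mojavensis group form an insemination reaction, an opaque mass in the uterus. A tract taken shortly after copulation still holds ejaculate. Arrays of whole tracts measure the summed RNA, so that RNA of the female and RNA that came with the ejaculate cannot be told apart here. The same holds for fewer cells of a type and less RNA per cell.

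The array names 14471 transcripts by a GI number, the gene name of the D. mojavensis genome annotation, and 48 by a symbol. The reference table at hand lists 15130 genes of the species but matched 0 of these names, so no function, position, sequence or tissue marker can be given for a GI number. The labelled tissue was therefore not checked against marker genes. Levels are log2 intensities after background correction and quantile normalization, and a difference of 1 is a 2-fold change.

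Of the 4 arrays, replicate 2 of each group was dim. The upper quartile of raw intensities was 2825 and 1056 on virgin replicates 1 and 2, and 2775 and 943 on conspecific 15 min replicates 1 and 2. The slope of log2 intensity along the transcript was 0.91 per 1000 bases on both virgin arrays, 0.98 on conspecific 15 min replicate 1 and 1.31 on replicate 2. Virgin replicate 2 also stood apart in its content. On it 22 transcripts lay more than 3 above virgin replicate 1, with a median level of 12.49 against 7.09, while 0 transcripts had such a gap in the other direction or between the conspecific 15 min arrays. The same 22 had a median of 7.09 and 7.19 on the conspecific 15 min arrays and of 11.76 on heterospecific 6 h replicate 2. They supply the 12 lowest differences of the whole comparison, from -3.59 to -2.33, each with an SE of 1.29 or more, and 0 of the 22 passed the test.

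A few transcripts changed by a large amount, and most of the profile did not separate the groups. With limma and a threshold of 0.05 on the adjusted p, 9 transcripts passed, 0.062% of those tested. Of these, 8 rose (0.0551%) and 1 fell (0.00689%). With median scaling or cyclic loess in place of quantile normalization, 5 and 6 transcripts passed, all higher. An unadjusted p under 0.05 was reached by 517 transcripts (3.56%), 363 higher (2.5%) and 154 lower (1.06%). That number moved with single arrays, to 1479 without virgin replicate 1, 1229 without conspecific 15 min replicate 1 and 268 without its replicate 2, and to 220 with median scaling. The difference was above 1 for 70 transcripts (0.482%) and below -1 for 49 (0.337%). Against virgin replicate 1 alone it was above 1 for 89 and below -1 for 105, so the balance of higher and lower turned without virgin replicate 2. Both conspecific arrays lay above both virgin arrays for 67 of the 70, and below both for 18 of the 49. Of the 49, 21 were among the 22 transcripts more than 3 higher on virgin replicate 2 than on replicate 1. The 70 and the 49 were chosen by the same 4 arrays, so nothing is read from this contrast. Over all transcripts the groups did not overlap for 14.1% in the higher and 10% in the lower direction. At least 1 of the 2 groups was above background for 63.8% of the transcripts, and virgins were below it for 38.7%. The median absolute difference between the group means was 0.15, against 0.29 between the 2 virgin arrays and 0.27 between the 2 conspecific arrays.

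**Figure D1:**
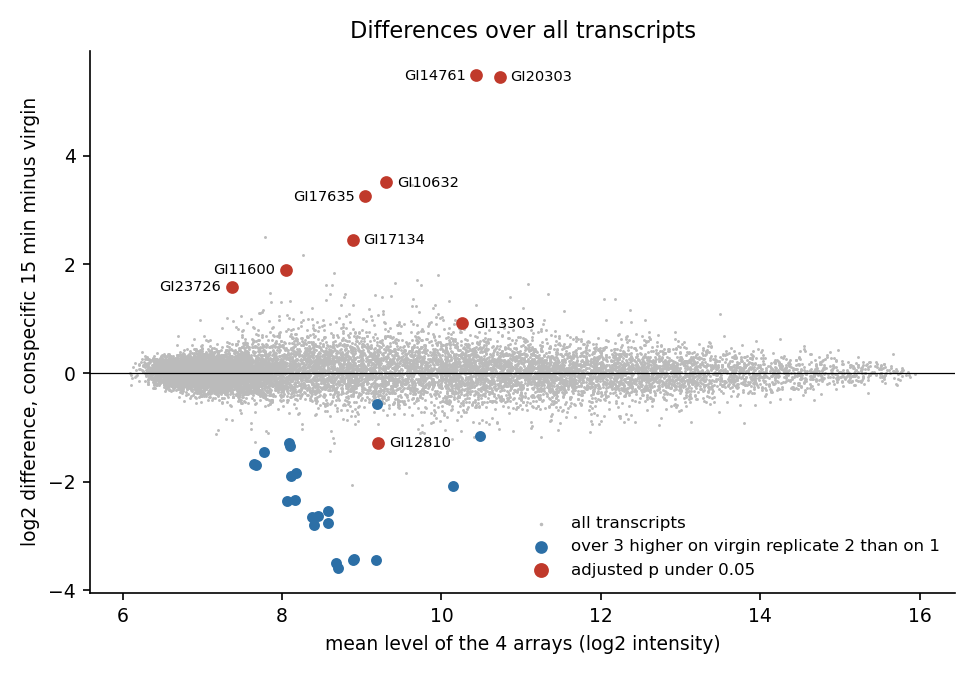
Each point is a transcript, with the mean log2 level of the 4 arrays on the x axis and the log2 difference, conspecific 15 min minus virgin, on the y axis. The 9 transcripts past the threshold are red, with 8 above and 1 below 0, and the 22 that lay more than 3 higher on virgin replicate 2 than on replicate 1 are blue and take up the lowest part of the plot.

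Over all transcripts the differences of separate pairs of arrays agreed little. Pearson's r between conspecific replicate 1 minus virgin replicate 1 and conspecific replicate 2 minus virgin replicate 2, which share no array, was 0.18 across 14519 transcripts. With the virgin arrays exchanged it was -0.39. Replicate 1 minus 2 correlated between the 2 groups with r = 0.51. In the exchanged pairs this shared difference enters with opposite signs and lowers r, so nothing about mating is read from the -0.39. Genes are not independent replicates, and these values are given as a description.

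GI14761 rose most. Its level was 7.32 and 8.07 on virgin replicates 1 and 2, of which only replicate 2 was above the background limit, and 13.41 and 12.94 on the conspecific arrays. All 4 single differences between a conspecific and a virgin array lay between 4.87 and 6.08. The rise was 5.48 on the log2 scale (44.5-fold, SE 0.30, 95% interval 4.82 to 6.13, limma adjusted p = 3.24e-05).

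GI20303 rose by nearly the same amount with far less spread. Its level was 8.04 and 7.97 on the virgin arrays and 13.49 and 13.42 on the conspecific arrays, so that the single differences spanned only 5.38 to 5.51. The rise was 5.44 (43.5-fold, SE 0.40, limma adjusted p = 0.000342), and the larger SE than that of GI14761 comes from the spread in the other groups. In raw intensity its 5 probes read 187 to 702 on the virgin arrays and 2632 to 26501 on the conspecific arrays. Of the 9 transcripts only GI20303 kept its call in a fit of these 4 arrays alone (adjusted p = 0.0195), which called 1 transcript.

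GI10632, GI17635 and GI17134 rose by smaller amounts. GI10632 lay at 7.95 and 7.17 in virgins and at 11.22 and 10.91 after mating, a rise of 3.51 (11.4-fold, SE 0.31, limma adjusted p = 0.00124). GI17635 lay at 7.83 and 7.02 in virgins and at 10.83 and 10.51 after mating, a rise of 3.25 (9.50-fold, SE 0.30, adjusted p = 0.00124). In both, virgin replicate 1 was above the background limit and the dim replicate 2 was not. GI17134 lay at 7.61 and 7.71 in virgins, on either side of the limits of 7.57 and 7.73, and at 9.84 and 10.38 after mating, a rise of 2.45 (5.46-fold, SE 0.24, adjusted p = 0.00229).

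GI11600 was above background on the conspecific 15 min arrays and on none of the other 12. Its level was 7.19 and 7.01 in virgins and 8.87 and 9.12 at 15 min, at least 2.54-fold higher (limma adjusted p = 0.000885), with an SE of 0.16 on the log2 scale. On the other 12 arrays, virgins included, it lay between 7.01 and 7.40.

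**Figure D2:**
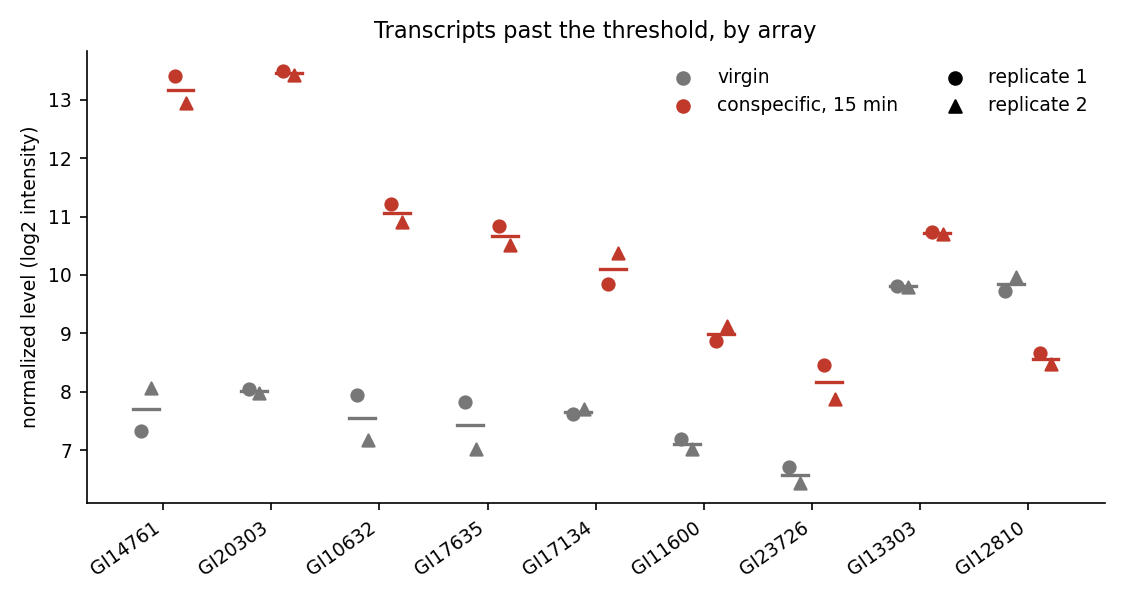
Normalized log2 level of the 9 transcripts past the threshold on each of the 4 arrays, with virgins in grey, conspecific 15 min in red, replicate 1 as circles, replicate 2 as triangles and the group mean as a bar. The groups do not overlap for any of the 9, and GI14761 and GI20303 go from about 8 to about 13.

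These 6 rises passed the threshold without any 1 of the 14 arrays left out in turn, while the calls of the other 3 transcripts depended on single arrays. GI23726 was below background on both virgin arrays (6.72 and 6.44) and lay at 8.45 and 7.87 after mating, at least 1.42-fold higher (limma adjusted p = 0.0431), with an SE of 0.22 on the log2 scale. GI13303 had the smallest change and very close replicates, with 9.81 and 9.80 in virgins and 10.73 and 10.71 after mating, a rise of 0.91 (1.88-fold, SE 0.13, adjusted p = 0.0431). GI12810 was the 1 transcript that fell, from 9.73 and 9.97 to 8.66 and 8.47, by 1.28 on the log2 scale (SE 0.17, adjusted p = 0.0247). Whichever of the 14 arrays was left out, GI13303 no longer passed (adjusted p 0.0526 to 0.484). GI23726 failed in 13 of these 14 fits (0.0523 to 0.487) and GI12810 in 11 (0.0513 to 0.408).

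Without virgin replicate 1, 13 transcripts were called, 11 higher and 2 lower, of which 7 were among the 9. Without virgin replicate 2, 6 were called, all higher, and without either conspecific 15 min array 8 were, all higher. All 4 arrays were read from their images on the same day, per the file headers, and a fit of the 8 arrays of that day called 2 transcripts, GI14761 and GI20303. Conspecific 6 h replicate 2, heterospecific 15 min replicate 1 and both heterospecific arrays at 2 h and at 6 h were read on another day. Heterospecific mating against virgins at 2 h and 6 h therefore cannot be told apart from the reading day. With only 2 arrays a group, an exact 2-sided permutation test of 1 transcript cannot go below 0.333, so the calls rest on the spread that limma estimated over 7 groups.

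Each transcript is read by 4 or 5 probes, which share the same RNA and are not replicates. In 8 of the 9 transcripts every probe was higher, or for GI12810 lower, on both conspecific arrays than on both virgin arrays. Over all transcripts this was so for 0.551% in the higher and 0.262% in the lower direction, and since the 9 were chosen by the same arrays, nothing is read from the contrast. The exception was GI17134, whose probe at position 1 of the transcript differed by 0.35 while the probes at positions 107, 180 and 205 differed by 2.42, 3.16 and 3.61 and the probe at position 250 by 1.23. In GI14761 the probe at position 163 differed by 2.51 and the 4 probes from position 253 to 378 by 5.49 to 5.80. The probes of GI20303 differed by 4.90 to 5.66 and those of GI17635 by 2.74 to 3.41.

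**Figure D3:**
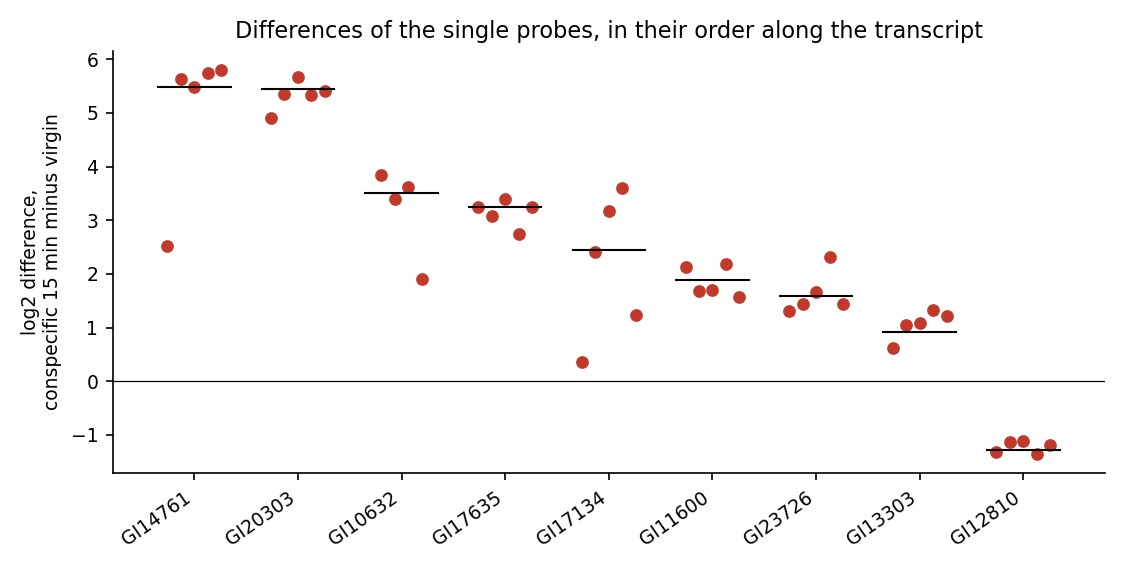
Each point is the log2 difference of 1 probe, conspecific 15 min minus virgin, in the order of the probes along the transcript, and the black bar is the fitted difference of the transcript. GI14761 and GI10632 each have a probe far below the rest, and the probes of GI17134 spread from 0.35 to 3.61. The probes of GI20303, GI17635 and GI12810 lie close together.

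Just outside the threshold, 6 transcripts had an adjusted p from 0.0631 to 0.15, all of them higher after mating, by 1.16 to 3.45, and the next value was 0.314. Of these 6, GI20788 lay at 7.64 and 7.82 in virgins and at 9.56 and 9.60 after mating (difference 1.85, limma adjusted p = 0.0631). GI19988 had a difference of 3.45 but a wide spread, with 8.88 and 6.91 in virgins and 12.07 and 10.64 after mating (SE 0.60, adjusted p = 0.146). GI14760, whose number is next to that of GI14761, was below background in virgins (6.40 and 6.66) and at 10.01 and 8.07 after mating, at least 2.62-fold higher with an adjusted p of 0.704. Among transcripts above background whose groups did not overlap, the lowest differences at an unadjusted p under 0.01 were those of GI16359 (-2.06, SE 0.47, adjusted p = 0.716) and GI23752 (-1.84, SE 0.45, adjusted p = 0.823). GI16359 lay at 10.15 and 9.66 in virgins and at 8.38 and 7.32 after mating, and GI23752 at 10.90 and 10.03 and at 8.57 and 8.69.

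The levels of the 9 transcripts in the other mated groups describe at which times and after which mating they differed from virgins. Those comparisons use the same 2 virgin arrays, so their values are given side by side. Of the 9, 5 were also called at 2 h after conspecific mating (0.0344% of all transcripts were called there) and 3 at 6 h (0.0276%). GI14761 had means of 13.17 ± 0.33, 12.89 ± 0.12 and 11.55 ± 0.05 (SD, n = 2) at 15 min, 2 h and 6 h, and GI10632 of 11.06 ± 0.22, 10.29 ± 0.51 and 9.04 ± 0.22. GI17134 had 10.11 ± 0.38, 9.75 ± 0.40 and 8.42 ± 0.29. In all 3, both arrays at 6 h lay below all 4 arrays at 15 min and 2 h, and the arrays at 15 min and 2 h overlapped for GI14761 and GI17134 but not for GI10632.

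A direct test between 6 h and 15 min after conspecific mating called 16 transcripts (0.11%), 2 higher (0.0138%) and 14 lower (0.0964%). Of the 9, 2 were lower at 6 h. The test shares the conspecific 15 min arrays by which the 9 were chosen, 8 of them as higher there. Lower values at 6 h were thus favoured in advance. GI11600 was at least 2.61-fold lower (limma adjusted p = 0.00299), and GI17134 fell by 1.69 (SE 0.24, adjusted p = 0.0409). The difference was -2.02 for GI10632 (adjusted p = 0.0504) and -1.62 for GI14761 (adjusted p = 0.0747), which did not pass. The call of GI11600 was lost without conspecific 15 min replicate 2 (adjusted p = 0.0657), and that of GI17134 without any 1 of 8 arrays, among them conspecific 15 min replicate 2 and conspecific 6 h replicate 2 (lowest adjusted p 0.0626).

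In a direct test of heterospecific minus conspecific mating at 15 min, 4 of the 9 were called, all lower after heterospecific mating. The test called 8 transcripts (0.0551%), 3 higher (0.0207%) and 5 lower (0.0344%). With median scaling it also called 8, but 6 higher and 2 lower. It shares the conspecific 15 min arrays by which the 9 were chosen, so lower values after heterospecific mating were favoured in advance. Heterospecific 15 min replicate 1 was also read on another day than both conspecific 15 min arrays. An unadjusted p under 0.05 was reached by 3.29% in that test and by 12.8% in the test of 6 h against 15 min. The number behind the first, 478, was 1708 without conspecific 15 min replicate 1, 160 without its replicate 2 and 93 with median scaling. The number behind the second, 1858, was 888 without conspecific 15 min replicate 2 and 722 with median scaling. GI14761 lay at 10.42 and 9.62 after heterospecific mating and differed from conspecific mating by -3.15 (SE 0.30, 95% interval -3.81 to -2.50, limma adjusted p = 0.00277). GI17134 lay at 7.80 and 8.03 and differed by -2.19 (SE 0.24, adjusted p = 0.00982). GI11600, at 7.13 and 7.40, was below background and at least 2.77-fold lower (adjusted p = 0.00277). GI10632 lay at 8.93 and 8.58 and differed by -2.31 (SE 0.31, adjusted p = 0.0331), a call lost without any 1 of 9 arrays. That of GI17134 was lost without conspecific 15 min replicate 2 (adjusted p = 0.116), and GI14761 and GI11600 passed with each of the 14 arrays left out in turn. GI14761 did not pass in 3 other settings (the compared groups alone, day 2 alone and a minimum change of 2-fold). GI11600 did not pass in the same 3, with median scaling or without the 4 dim arrays. GI17134 did not pass in the same 3 or without background correction. GI10632 did not pass in the same 3, with median scaling, with the reading day as a block or with the probe slope as a covariate.

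GI20303 and GI17635 were high after both matings. GI20303 lay at 13.78 and 14.05 after heterospecific mating, above both conspecific arrays, with a difference of 0.46 whose 95% interval ran from -0.42 to 1.34 (limma adjusted p = 0.982). GI17635 lay at 9.92 and 10.00, below both conspecific arrays, with a difference of -0.71 (95% interval -1.37 to -0.05, adjusted p = 0.982). A p-value above the threshold does not show that the levels were alike. For GI13303 the difference was -0.11 (95% interval -0.40 to 0.17), and its level after mating was between 10.31 and 10.61 on all 10 other mated arrays, against 9.81 and 9.80 in virgins. Against virgins at 15 min, 3 of the 9 were called after heterospecific mating (0.062% of all transcripts), GI14761, GI17635 and GI20303. The same number of the 9 were called at 2 h (0.0689%) and at 6 h (0.165%) after heterospecific mating, on arrays read on another day than the virgin arrays.

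**Figure D4:**
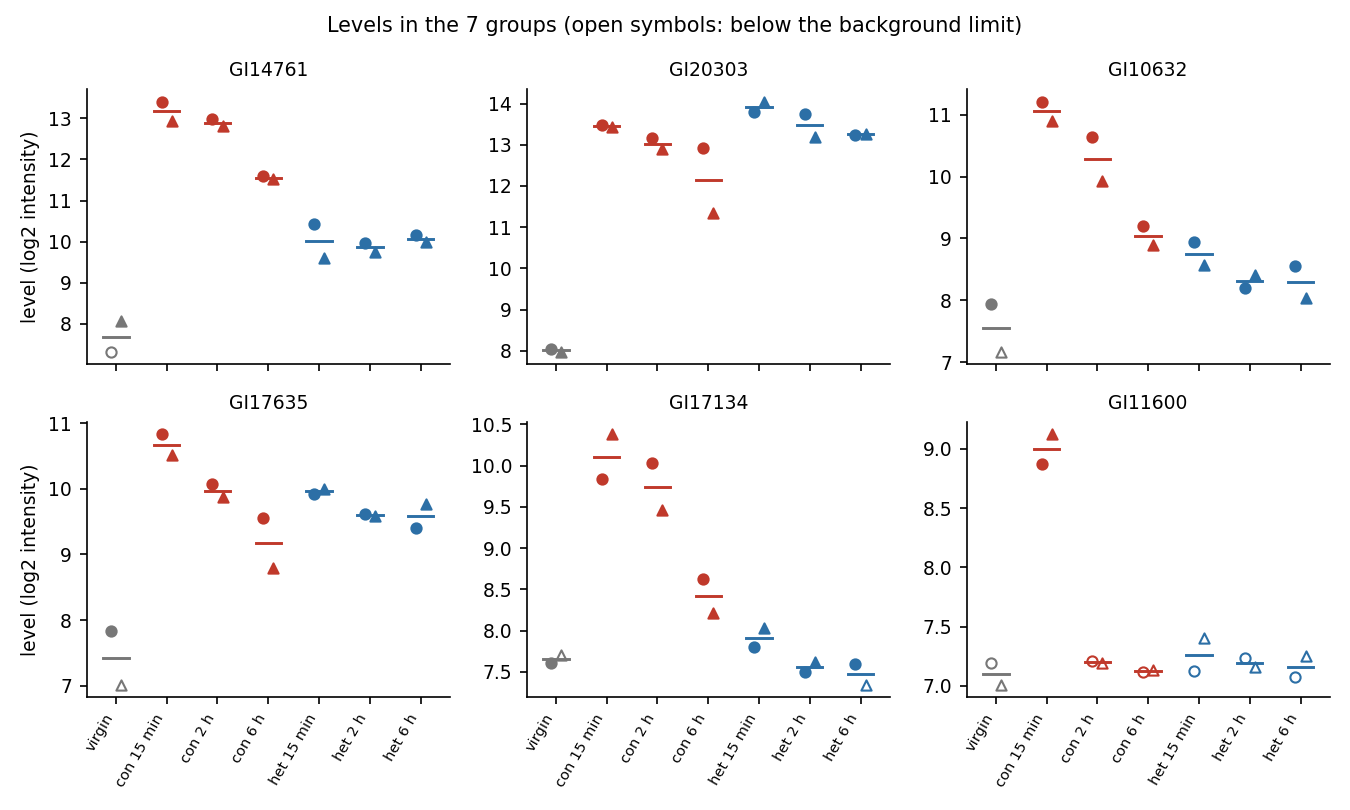
Log2 level of the 6 transcripts that passed without any 1 of the 14 arrays left out in turn, in the 7 groups, with virgins in grey, conspecific (con) in red and heterospecific (het) in blue. Bars are group means, circles and triangles are replicates 1 and 2, and open symbols lie below the background limit. GI11600 is above the limit at conspecific 15 min alone, and the y axes differ between panels and do not start at 0.

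The transcripts with a symbol allow a look at known genes, and 0 of the 48 passed limma's test (smallest adjusted p = 1), with 2 at an unadjusted p under 0.05. The 4 named Acp, a prefix used in Drosophila for accessory gland proteins, had differences from 0.00 to 0.32 with a median of 0.10, beside 0.01 over all transcripts. Acp2 lay at 6.68 and 6.96 in virgins and at 6.83 and 6.83 at 15 min, below background on all 4 arrays. Acp11 (6.62 and 6.84, then 6.74 and 7.36) and Acp48 (6.43 and 6.46, then 6.54 and 6.71) were below background as well. Acp7 was near the background limits in both groups, with 7.78 and 7.73 in virgins and 7.68 and 7.83 after mating. The limits were 7.57 and 7.73 on the virgin and 7.55 and 7.68 on the conspecific 15 min arrays. On virgin replicate 2 Acp7 lay just below the limit. After heterospecific mating at 15 min Acp2 lay at 9.94 and 12.00 and was at least 10.3-fold higher than after conspecific mating (limma adjusted p = 0.0140). That call was lost without conspecific 15 min replicate 1 (adjusted p = 0.129) or replicate 2 (0.141). Acp11 lay at 8.13 and 9.59, at least 2.37-fold higher, and did not pass (adjusted p = 0.462).

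Of the 13 symbols outside the Acp, Tes and moj names, 10 had a positive and 3 a negative difference. The groups did not overlap for 5 in the higher and 1 in the lower direction. Over all 14519 transcripts, 7563 had a positive difference, and the groups did not overlap for 14.1% higher and 10% lower. With 13 symbols and 0 calls, no shift of these genes is read from the counts. Dscam, a cell surface receptor of neurons and immune cells, lay at 8.84 and 8.12 in virgins and at 9.19 and 9.16 after mating (difference 0.69, SE 0.29, limma adjusted p = 1). Xdh, the gene of xanthine dehydrogenase in purine breakdown, lay at 9.79 and 9.88 and at 9.94 and 10.99, so that its difference of 0.63 came from conspecific replicate 2. Adh1 and Adh2 encode alcohol dehydrogenases, which oxidise the alcohols of fermenting food. Adh1 lay at 9.78 and 9.84 in virgins and at 10.16 and 10.28 after mating (difference 0.41, SE 0.22), and Adh2 at 10.52 and 10.64 and at 10.87 and 10.74 (0.23, SE 0.16).

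The other symbols gave smaller or negative differences. The clock gene per was at 7.83 and 7.89 in virgins and at 7.78 and 8.28 after mating. The transcription factor gene cbt differed by 0.08, the co-repressor gene CtBP by 0.12, the spliceosome gene snf by 0.14 and the mitofusin gene Marf by 0.10. Trap100, a Mediator subunit gene, differed by -0.36 (SE 0.27) with overlapping arrays. ST6Gal, a sialyltransferase gene, differed by -0.33 and was below background in both groups.

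Of the 25 transcripts named Tes, 12 were below background in both groups, and the median difference of all 25 was -0.03. Tes105 (0.68, SE 0.37), Tes124 (0.61, SE 0.20) and Tes134 (0.60, SE 0.40) were highest among those above background. Of these 3, only Tes124 had groups that did not overlap, with 7.70 and 7.35 in virgins and 8.01 and 8.25 after mating. Tes104 was lowest, at 7.73 and 6.86 in virgins and at 6.89 and 6.84 after mating. The 6 named moj were all above background and lay between -0.14 and 0.11, with overlapping arrays in all 6.

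**Figure D5:**
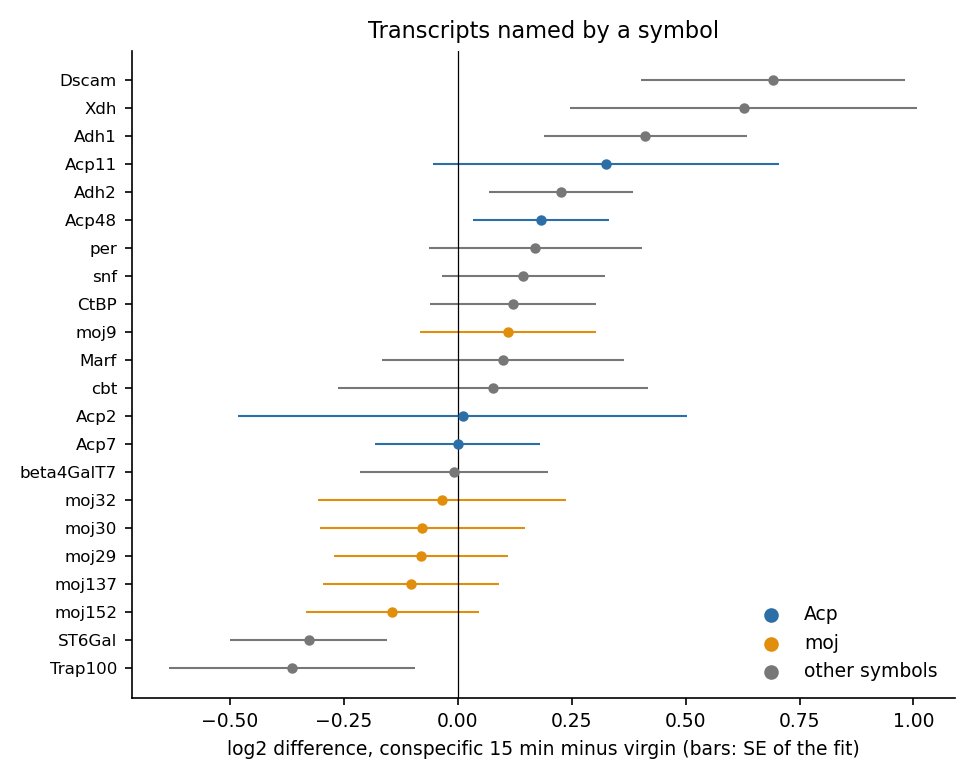
Log2 difference, conspecific 15 min minus virgin, of 22 symbol-named transcripts outside the Tes names, with the SE of the fit as bars. Acp names are blue, moj names orange and the rest grey. All lie between -0.36 and 0.69, and 0 passed the threshold.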

How the data were processed

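Per the labels' protocols, RNA was amplified and labelled with Cy3 before hybridisation to 1-colour NimbleGen arrays. The deposited files give the raw intensity of 71998 perfect-match probes, and their headers record NimbleScan 2.4.67. RMA appears in the submitters' processing notes, yet the deposited intensities in the value table are the raw ones (0 probes differed on any array).

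Intensities were corrected with normexp (offset 50, which understates changes of dim transcripts), quantile normalized over 14 arrays, converted to log2 and combined per transcript by median polish (limma 3.58.1 in R 4.3.3). limma was fitted with 1 mean per group over 7 groups (7 residual and 3.56 prior degrees of freedom, median SE 0.22), 2-sided, with Benjamini-Hochberg adjusted p-values over 14519 transcripts. The number of arrays limits the precision. The fit was also run on simulated data with independent noise on each array. These lack the shared replicate differences described below, so nothing about the calls is read from them.

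An array's background limit, chosen after the data were seen, is the mode of its transcript levels plus 2 SDs taken from the lower side. Transcripts under it on each array of 1 group are called below background there, and their fold is a lower bound computed against the limit.

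Named transcripts are those past the threshold, and, of the rest above background in 1 group, the largest differences with groups that do not overlap and an unadjusted p under 0.01, the highest and lowest symbol-named transcripts, and all named Acp. The other symbols and the transcripts in the closing section were named after their values were seen. The transcripts and lists were chosen with earlier results of these data known. The values of 1 symbol-named transcript are not reported here, though the counts include it. Lists by product keyword held 0 transcripts, because no product names were at hand. Alternatives covered background, scaling, probe summary, moderation, samples, minimum change, dim transcripts, replicate number, reading day, array weights, probe slope and each array left out.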

Additional observations from a re-analysis of the deposited data

Results flagged for a closer look

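The direct test of heterospecific minus conspecific mating at 15 min called 8 transcripts (limma, adjusted p under 0.05), 3 higher and 5 lower. Of these, 6 are named here, 5 lower and 1 higher. They were picked by their difference from virgins or by having a symbol, so nothing is read from this balance. The log2 difference was 4.14 for Acp2, -3.15 for GI14761, -2.31 for GI10632, -2.21 for GI20788, -2.19 for GI17134 and -1.73 for GI11600. The values of Acp2 and GI11600 are fitted ones against a group below background and are no bounds. The call of Acp2 was also lost in 5 settings other than leaving out 1 array, namely no background correction, a 2-fold minimum change, the compared groups alone, the probe slope as a covariate and leaving out the 4 dim arrays. GI20788 had not passed against virgins, lay at 9.56 and 9.60 after conspecific and at 7.59 and 7.14 after heterospecific mating, and had an adjusted p of 0.0179, a call lost without any 1 of 3 arrays, conspecific 15 min replicate 1 or 2 or heterospecific 15 min replicate 2. It was lost in 8 other settings too, which were array weights, cyclic loess, median scaling, a 2-fold minimum change, the compared groups alone, the probe slope, the mean of the probes and leaving out the 4 dim arrays.

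Within conspecific mating the direct test called GI11600 (-1.87, again a fitted value against a group below background) and GI17134 (-1.69) lower at 6 h. Both were chosen as high on the same conspecific 15 min arrays, so lower values at 6 h were favoured in advance. Apart from leaving out 1 array, the call of GI11600 was lost in 5 settings and that of GI17134 in 9. No group had the 4 arrays that a search for outlying arrays needs.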

How the results depend on the processing

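For conspecific 15 min minus virgin (9 calls), 12 of 16 settings other than leaving out 1 array in turn gave a count within 1.5 times. These need not be the same transcripts. With trend and robust settings 9 were called, of which 7 were among the main 9. The count was 5 with median scaling, 1 in a fit of the compared groups alone, 4 with a minimum change of 2-fold and 2 on day 2 alone, and 6 to 13 with 1 array left out. Median scaling moved the median difference of all transcripts from 0.01 to 0.15, and with it all calls were higher (100%, from 88.9%). GI20303 passed in all 30 settings, GI14761 in 29, GI10632 and GI17635 in 28, GI17134 in 27, GI11600 in 24, GI12810 and GI23726 in 7 and GI13303 in 3, and the sign of none of these 9 turned. GI11600 lost its call with median scaling (limma adjusted p = 0.114) and without the 4 dim arrays, a setting added after the data were seen. These were replicate 2 of virgin and conspecific 15 min and replicate 1 of conspecific 2 h and 6 h. Each of these groups then has 1 array left, so the count of calls is not given.

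For heterospecific minus conspecific at 15 min (8 calls) the count was 5 without background correction, 16 with offset 0, 17 with trend and robust settings, 15 with the day as a block, 4 with the probe slope as a covariate and 5 without the 4 dim arrays. limma called 0 for the compared groups alone (278 at an unadjusted p under 0.05) and 0 at a minimum change of 2-fold (17). With 1 array left out it was 3 to 35, with 5 and 3 without conspecific 15 min replicates 1 and 2 and 35 without heterospecific 15 min replicate 1.

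For conspecific 6 h minus 15 min (16 calls) the count was 9 without background correction, 32 with the mean of the probes, 30 above background, 110 with the day as a block, 1 with array weights and 48 without the 4 dim arrays. limma called 0 with median scaling (722 at an unadjusted p under 0.05), 0 for the compared groups alone (1162), 0 at a minimum change of 2-fold (37), 0 on day 2 alone (1313) and 0 with the probe slope (818). With 1 array left out it was 0 to 50: 0 without conspecific 15 min replicate 2 (888), 38 without its replicate 1, 50 without either virgin array, 7 without either of the heterospecific 2 h arrays, and 8 without either of those at 15 min or without replicate 2 of conspecific 6 h. The causes were not tested.

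Replicates 1 minus 2 of virgin and conspecific 15 min correlated with r = 0.51 over transcripts, but of 21 pairs of groups only 8 exceeded 0.1 (lowest -0.63), so the numbers were not taken as pairs. With the replicate block the counts were 7, 8 and 10, and 6 for the 4 arrays of conspecific 15 min and virgin alone, a setting added later. For conspecific 6 h minus 15 min (r = -0.38) the crossed block called 41.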

Other observations

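The 22 transcripts that were high on virgin replicate 2 were also above background on heterospecific 6 h replicate 2, all 22 of them. On each of the other 12 arrays 3 to 8 of them were above background. Not all 22 were high on heterospecific 6 h replicate 2. GI12247, GI19360 and GI19362 lay at 8.14, 8.15 and 8.72 on it and at 12.50, 10.73 and 11.24 on conspecific 6 h replicate 2. GI16637 lay at 14.39 on virgin replicate 2, 13.20 on heterospecific 6 h replicate 2 and 7.41 on virgin replicate 1, and GI16762 at 13.95, 12.72 and 7.05. Of the 22, 10 have a GI number next to that of another of them, such as GI16642 and GI16643 or GI18413 and GI18414.

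Both conspecific 15 min arrays lay above all other 12 arrays for 245 transcripts (1.69%) and below all of them for 167 (1.15%). Of the 9 transcripts past the threshold, 5 were among the first, GI10632, GI11600, GI13303, GI17635 and GI23726, and 0 among the second. Since the 9 were chosen by the same conspecific 15 min arrays, nothing is read from these counts.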
